A study of Mus musculus with 80 samples.

Results

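Cytochromes P450 of the Cyp2 and Cyp3 families are the enzymes with which the liver oxidizes drugs, steroids, fatty acids and plant compounds. The gene count table was searched for every symbol made of Cyp2 or Cyp3, a subfamily letter and a number, and 56 of the 78275 genes listed had one. Of these, 45 had at least 10 counts in 4 or more libraries and are the genes described here. They comprise 4 Cyp2a, 3 Cyp2b, 13 Cyp2c, 8 Cyp2d, 4 Cyp2j and 7 Cyp3a genes and 6 others (Cyp2e1, Cyp2f2, Cyp2g1, Cyp2r1, Cyp2s1 and Cyp2u1). All 45 passed the filter on low counts of the main test.

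The livers came from C57BL/6J mice of both sexes, an inbred strain, bought at 8 to 12 weeks of age and kept on chow in a 12 h light and 12 h dark cycle before constant darkness on day 11. Fed mice (control) had food throughout, and fasted mice lost it at circadian time (CT) 10, so that the fast had lasted 2 h at CT12 and 34 h at CT44. Sampling began at CT8 and ended at CT44 in steps of 4 h. Each of the 10 times has 2 male and 2 female livers per treatment, which gives 80 libraries of polyadenylated RNA, each from 1 mouse. The group called fasted had not yet lost its food at CT8 and is left out of the fasting means.

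Each of these enzymes holds a haem and takes its electrons from a shared reductase in the endoplasmic reticulum. In rodent liver many of the genes are under known control by the receptors CAR and PXR, which sense foreign compounds, by the sex-specific pattern of growth hormone release, which acts through STAT5b, and by the circadian clock, partly through the D-box binding factors DBP, TEF and HLF. Most of the genes lie in clusters of close copies. In the GENCODE M21 annotation of build GRCm38, 12 of the Cyp2c genes lie on chromosome 19 between 39007019 (Cyp2c55) and 40187333 (Cyp2c70), the Cyp2d genes on chromosome 15, the Cyp2j genes on chromosome 4, the Cyp3a genes on chromosome 5, and Cyp2a, Cyp2b, Cyp2f2, Cyp2g1 and Cyp2s1 on chromosome 7. Cyp2d13 was not matched there. Reads of close copies can be split between them in counting, so that the single genes of a subfamily are uncertain where copies are near-identical, and counts summed over each subfamily are given below beside the genes.

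Stretches upstream of the transcription start are shown for a choice of the genes that held a motif named below. The sequences are RefSeq's (build GRCm38.p6, 250 bases before to 50 after each start), and 38 of the 45 genes had a window. In capitals is a D-box, searched as TTATGTAA or TTATGCAA on both strands, in the 3 genes that held one: Cyp2a4 (chr7:26307082-26307151), Cyp2a5 (chr7:26835229-26835298) and Cyp2b10 (chr7:25897548-25897617), all on the plus strand and from 110 to 41 bases before the start.

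Cyp2a4: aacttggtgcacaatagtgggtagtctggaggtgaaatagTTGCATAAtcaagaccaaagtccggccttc

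Cyp2a5: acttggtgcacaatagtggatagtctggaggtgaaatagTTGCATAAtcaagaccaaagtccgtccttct

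Cyp2b10: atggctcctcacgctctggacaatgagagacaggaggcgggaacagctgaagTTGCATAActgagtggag

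The D-box started 70, 71 and 58 bases before the start in Cyp2a4, Cyp2a5 and Cyp2b10, and Cyp2a4 and Cyp2a5 were identical at 66 of the 68 bases around it. A D-box was present in 3 of the 38 genes (7.89%), or 3 of their 40 windows, and in 1.66% of 32851 windows of all genes. Cyp2a4 and Cyp2a5 are close copies and not separate occurrences. The next sequences show the nuclear receptor motif AGGTCA, or its complement TGACCT, in capitals in Cyp3a25 (chr5:146009748-146009807, minus strand), Cyp3a59 (chr5:146079068-146079127, plus strand), Cyp3a57 (chr5:145345079-145345138, plus strand), Cyp3a11 (chr5:145879985-145880044, minus strand), all from 190 to 131 bases before the start, and in Cyp2c70 (chr19:40187337-40187396, minus strand), from 110 to 51 bases before it.

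Cyp3a25: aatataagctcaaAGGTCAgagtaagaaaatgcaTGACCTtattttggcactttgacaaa

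Cyp3a59: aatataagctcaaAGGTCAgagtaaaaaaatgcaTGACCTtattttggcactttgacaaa

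Cyp3a57: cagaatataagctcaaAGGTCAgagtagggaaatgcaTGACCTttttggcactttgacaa

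Cyp3a11: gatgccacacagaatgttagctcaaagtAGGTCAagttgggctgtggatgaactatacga

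Cyp2c70: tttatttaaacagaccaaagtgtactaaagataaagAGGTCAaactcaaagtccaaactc

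The receptor motif was present in 15 of the 38 genes (39.5%), in 12 of them before the start. By window it was present in 16 of the 40 windows of these genes, and in 16.3% of all windows. Some of these genes are close copies, so they are not separate occurrences. Cyp3a44, Cyp2b9 and Cyp2b13 also held the motif before the start and are not shown, and their mean fasting effects were not called. A pair of receptor motifs facing each other across 15 bases was found in Cyp3a25, Cyp3a57 and Cyp3a59, which are close copies, and in 5 of all 32851 windows, a spacing that was chosen after these sequences were seen. The E-box CACGTG was present in 1 gene, Cyp2j6, against 7.15% of all windows, and the STAT5 element TTCNNNGAA in none of the 38 genes, against 8.30% of all windows. A match gives letters and not a bound site.

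Library totals lay between 25534901 and 59927771 counts, with a median of 42303883. Xist was above the Y-linked Ddx3y in all libraries titled female and below it in all titled male, 80 of 80, and Srebf1 fell and Fgf21 rose with fasting (adjusted p = 1.91e-29 and 3.56e-18, edgeR). Ribosomal RNA took 31.3% of counts in 1 fed female library at CT8 and at most 4.88% in the others. The hepatocyte markers Alb, Apoa1, Ttr, Serpina1c and Ahsg together lay between 61210 and 128700 CPM (counts scaled to a common library size by TMM) from CT12 on, so the labelled tissue was found. The 45 genes took 1.62% to 2.59% of all counts in fed livers and 1.38% to 2.65% in fasted livers over the same times. The 2 fasted females at CT40 lay furthest apart of the 40 pairs of mice in a group, with a median absolute log2 difference of 0.794 over the 45 genes and 0.512 over all genes tested, against medians over the groups of 0.353 and 0.236. The first and the second of these mice had 33.7 and 401.9 CPM of Cyp2b10, 273 and 46.0 CPM of Cyp2c50, and 3.71 and 0.994 CPM of Cyp2r1. In bulk tissue, fewer cells of a type and less RNA per cell cannot be told apart.

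Per kilobase of exon, the highest median levels in fed livers were those of Cyp2e1, which oxidizes ethanol and acetone, at 2237 CPM per kb, Cyp3a11, the main Cyp3a of mouse liver, at 649, and Cyp2f2, which activates naphthalene, at 622. Cyp2d26 (394), Cyp2d10 (334) and Cyp2c70 (322) followed. Among the lowest were Cyp3a57 at 0.0696 and Cyp2j8 at 0.0432 CPM per kb, genes with 0 to 14 counts in each fed library from CT12 on. The spread between fed libraries exceeded the steps between neighbours in this order. Over the 40 fed libraries Cyp3a11 lay between 1636 and 5921 CPM and Cyp2f2 between 518 and 1932 CPM.

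Fasting changed 75.6% of these genes, against 62.5% of all genes tested, and in both directions. In the mean of CT12 to CT44, 15 of the 45 genes rose, where 29.5% of 21187 genes tested rose, and 19 fell, where 32.9% of all genes fell (edgeR's quasi-likelihood test, Benjamini-Hochberg adjustment over all genes, adjusted p under 0.05). The median change was -0.23 on the log2 scale, against -0.02 over all genes. Cyp3a genes rose (5 of 7, none fell), Cyp2c genes fell (10 of 13, with 2 that rose), and none of the 4 Cyp2a genes passed the test. By sex, 10 Cyp2c genes fell and 2 rose in females, while 5 fell and 3 rose in males. Of the Cyp2a genes, 2 fell in females and 1 rose in males, and 1 Cyp3a gene fell in females. In the mean of both sexes, 8 genes changed by at least 2 times. Of these, Cyp2b10, Cyp2c39 and Cyp2j8 rose, and Cyp2c70, Cyp2c55, Cyp2g1, Cyp2u1 and Cyp2r1 fell.

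Cyp2c70 makes the muricholic acids, bile acids typical of mice, from chenodeoxycholic acid. At CT16 its level was 678 and 828 CPM in fed males, 612 and 647 in fed females, 301 and 463 in fasted males, and 314 and 386 in fasted females. At CT44 it was 899 and 905 CPM in fed males, 743 and 627 in fed females, 12.3 and 10.1 in fasted males, and 28.2 and 11.6 in fasted females. The groups did not overlap at either time, and the gap had widened with the length of the fast. The log2 change was 0.01 at CT12, -0.91 at CT16, -2.69 at CT24, -4.67 at CT36 and -5.72 at CT44, and it was called at 8 of 9 times. Its mean over CT12 to CT44 was -3.08 (SE 0.08, adjusted p = 2.7e-32, edgeR), the largest fall among the 45 genes.

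The other falls of at least 2 times were first called at CT16 or CT20. Cyp2c55, an enzyme of arachidonic and linoleic acid oxidation, lay between 1.27 and 21.2 CPM in fed livers (median 3.98) and between 0 and 8.66 CPM in fasted livers (median 0.632), with a mean log2 change of -2.50 (SE 0.20). Cyp2r1, a hydroxylase of vitamin D, fell from a median of 14.4 CPM (9.49 to 17.4) to 7.41 CPM (0.994 to 14.5), or -1.09 (SE 0.06), and was lower at 9 of 9 times. Cyp2u1, a hydroxylase of long-chain fatty acids, fell by 1.22 on the log2 scale (SE 0.12), most at CT20, where fed males had 35.8 and 33.4 CPM, fed females 12.2 and 4.53, fasted males 10.3 and 6.56, and fasted females 0.976 and 1.23. Within each sex, fed and fasted livers did not overlap at CT20. Cyp2g1, best known from olfactory mucosa, was low throughout (median 1.81 CPM fed and 0.504 CPM fasted) and fell by 1.63 (SE 0.15).

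Among the abundant Cyp2c genes, Cyp2c29 fell from a median of 815 CPM (387 to 1178) to 415 CPM (205 to 942), a log2 change of -0.90 (SE 0.07) that was below 0 at 9 of 9 times. Cyp2f2 fell from 1276 CPM (796 to 1932) to 940 CPM (180 to 1842), or -0.59 (SE 0.05). Cyp2c67, Cyp2c40, Cyp2c50, Cyp2c54, Cyp2c69 and Cyp2c68 fell by 0.25 to 0.71. Cyp2j5, the most abundant epoxygenase of the Cyp2j group, and Cyp2j6 fell by 0.33 and 0.23. Cyp2f2 is a marker of periportal hepatocytes and Cyp2e1 and Cyp2c29 are markers of pericentral ones, and the 2 pericentral genes moved in opposite directions.

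Cyp2b10 is the classical target of CAR and is induced by phenobarbital. At CT24 it lay at 0.694 and 1.35 CPM in fed males, 23.02 and 13.43 in fed females, 2.43 and 13.2 in fasted males, and 159 and 179.5 in fasted females. Fed and fasted livers were apart within each sex, and the higher of the fasted males lay just below the lower of the fed females. The log2 change was 3.08 at CT24, 0.50 at CT36, where it was not called, and 1.92 in the mean (SE 0.19, adjusted p = 6.7e-12, edgeR). It was above 0 at 9 of 9 times and called at 6.

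Cyp2c39, a retinoic acid hydroxylase, and Cyp2c38 were the 2 Cyp2c genes that rose. At CT44 Cyp2c39 lay at 0.807 and 1.65 CPM in fed males, 16.6 and 19.0 in fed females, 11.0 and 15.4 in fasted males, and 39.5 and 29.9 in fasted females. Fasted males thus came close to fed females. The mean log2 change was 1.44 for Cyp2c39 (SE 0.11) and 0.89 for Cyp2c38 (SE 0.07), both called at 7 of 9 times. These genes lie next to Cyp2c29 and Cyp2c67, which fell.

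Cyp2e1 is induced in fasting and diabetes, where it oxidizes acetone. At CT20 it lay at 2577 and 4704 CPM in fed males, 2199 and 2969 in fed females, 8705 and 8820 in fasted males, and 7444 and 7691 in fasted females, with no overlap between treatments. The mean log2 change was 0.76 (SE 0.08), above 0 at 9 of 9 times. Cyp3a13 (0.77, SE 0.06) and Cyp3a25 (0.76, SE 0.06) rose as much. Cyp3a25 went from a median of 522 CPM (350 to 867) in fed to 939 CPM (468 to 1922) in fasted livers.

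Cyp3a59 rose by 0.62 (SE 0.09) and Cyp3a11, the most abundant Cyp3a gene, by 0.30 (SE 0.08), from 3306 CPM (1636 to 4488) to 3814 CPM (1420 to 6306), and Cyp3a11 was called at none of the single times. Cyp3a57 (0.94, SE 0.18) and Cyp2j8 (1.01, SE 0.30) also rose, but from at most 14 counts in a fed library, so that their fitted values depend on few reads. Cyp2j8 was not called without the second male replicate, without either female replicate, without CT36 or without CT40, and its changes ran from -0.64 at CT28 to 3.79 at CT36. In the Cyp2d group, whose human counterpart handles many drugs, Cyp2d9 (0.52), Cyp2d26 (0.25), Cyp2d10 (0.19) and Cyp2d22 (0.19) rose, while Cyp2d40 (-0.99, SE 0.11), Cyp2d13 (-0.53, SE 0.12) and Cyp2d12 (-0.37, SE 0.15) fell. The last 3 lie outside the rule for named genes and are given to complete the group. Cyp2j9 rose by 0.60 (SE 0.09).

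Of the 45 genes, 11 did not pass the test of the mean. They include Cyp2a4 (-0.23, SE 0.12, adjusted p = 0.085, edgeR), Cyp2a5 (-0.18, SE 0.11), Cyp2a12 (-0.01, SE 0.04), Cyp2c37 (0.06, SE 0.12), Cyp2d11 (0.06, SE 0.09), Cyp2b9 (-0.09, SE 0.25) and Cyp3a44 (-0.14, SE 0.32). All but 1 of the 11 were called at no single time. For Cyp2b9, Cyp2b13, Cyp3a16 and Cyp3a44 the mean gives equal weight to males, in which they had few counts. In females, Cyp2b13 (-0.61, SE 0.23) and Cyp3a16 (-0.99, SE 0.40) were called lower with fasting, and Cyp2b9 and Cyp3a44 were not called.

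**Figure D1:**
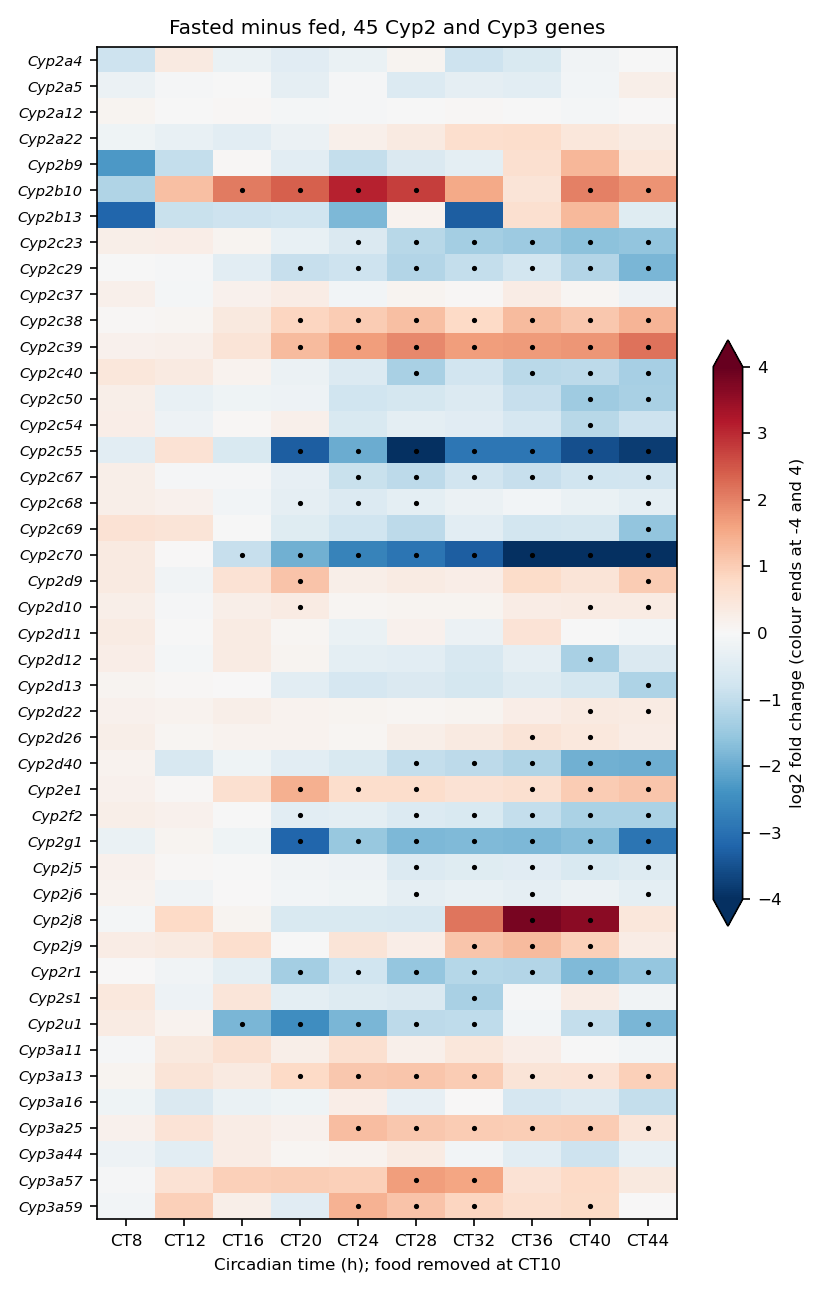
Log2 fold change of fasted against fed livers (colour) for each of the 45 genes (rows) at each circadian time (columns), with a dot where edgeR's adjusted p was under 0.05. Cyp2c70 passes from 0.01 at CT12 to -5.72 at CT44, Cyp2c39 and Cyp2c38 are above 0 at all 9 times after food removal, and no gene has a dot at CT8 or CT12.

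The number of genes called was higher late in the fast than early, though it did not grow at every step. Time since food removal and circadian time moved together along this series. At CT8, before it, 0 of the 45 genes were called by edgeR (1.33% of all genes, with 2 of the 45 at an unadjusted p under 0.05, and 0 by DESeq2), and at CT12, after 2 h, 0 again (1.6% of all genes, with 4 of the 45 at an unadjusted p under 0.05, and 2 by DESeq2, Cyp3a25 and Cyp3a59). Then 3 were called at CT16 (23.4% of all genes), 15 at CT20 (36.6%), 16 at CT24 (24.1%), 22 at CT28 (21.0%), 19 at CT32 (17.7%), 20 at CT36 (26.8%), 27 at CT40 (39.9%) and 26 at CT44 (39.4%). As shares these were 6.67% at CT16, 33.3% at CT20 and 57.8% at CT44. At CT16 the 3 genes were Cyp2b10, Cyp2c70 and Cyp2u1. Leaving out a replicate of 1 sex moved some of these counts by over 1.5 times: without the first male replicate to 9 at CT24 and 12 at CT32, without the second to 14 at CT28, 10 at CT32, 15 at CT40 and 15 at CT44, and without the first female replicate to 4 at CT12 and 5 at CT16.

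**Figure D2:**
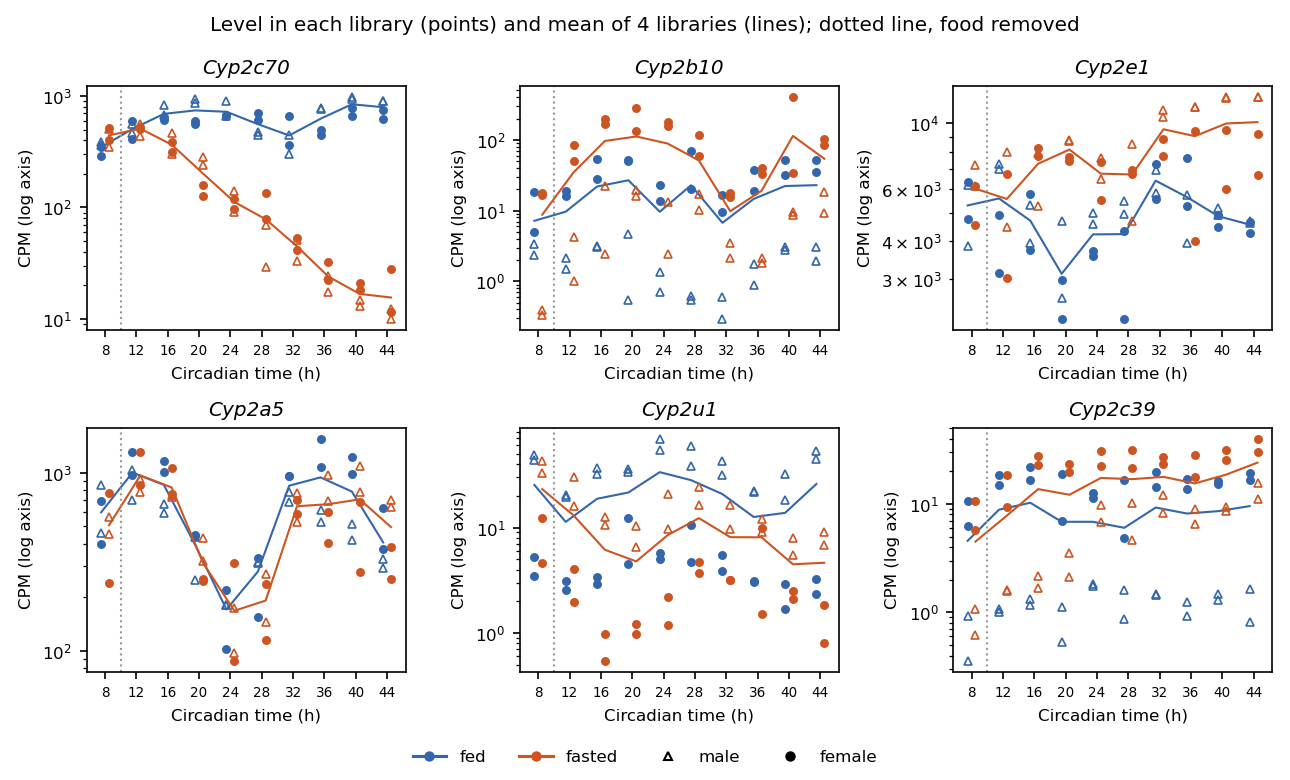
CPM on a log axis against circadian time for 6 genes, with fed livers in blue, fasted in orange, males as open triangles, females as filled circles and a line through the mean of the 4 libraries at each time. Fasted Cyp2c70 falls from 301 to 463 CPM at CT16 to 10.1 to 28.2 CPM at CT44, the Cyp2a5 troughs at CT24 coincide in fed and fasted livers, and the sexes are apart for Cyp2b10, Cyp2c39 and Cyp2u1 in fed livers.

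Summed counts do not depend on how reads were split among copies. From CT12 to CT44 the Cyp2c sum fell by 0.76 (SE 0.06, adjusted p = 1.67e-16, edgeR), with a median of 3442 CPM in fed males, 2194 in fasted males, 5382 in fed females and 2787 in fasted females. The Cyp3a sum rose by 0.40 (SE 0.07), from 4206 to 5551 CPM in males and from 3797 to 4479 in females. The Cyp2b sum rose by 0.80 in the mean of the sexes, but its median went from 2.41 to 9.98 CPM in males and from 851 to 792 CPM in females. The Cyp2a sum (-0.15) and the Cyp2j sum (-0.30) fell and the Cyp2d sum (0.16) rose. A Cyp3a41a row, with a letter at its end, lay outside the set of genes, and adding such copies and pseudogenes kept the direction and the call of all 6 sums in the fasting mean.

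The 2 sexes differed in most of these genes. In fed livers 19 of the 45 were higher in females, where 20.6% of all genes were, and 14 were higher in males, where 18.6% were. In fasted livers the counts were 16 (19.0% of all genes) and 19 (19.0%). All 3 Cyp2b genes, 7 of 13 Cyp2c, 3 of 4 Cyp2a and 4 of 7 Cyp3a genes were higher in fed females, and 5 of 8 Cyp2d genes in fed males.

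The female set was led by Cyp2b13 and Cyp2b9, which are kept off in male liver by the male growth hormone pattern. Over the 20 fed libraries of each sex, Cyp2b9 had a median of 538 CPM in females and 0.22 in males, and Cyp2b13 had 252 CPM in females and 0.0316 in males. The fitted log2 differences, 10.74 (SE 0.34) and 11.12 (SE 0.39), rest on few male reads, since from CT12 on a fed male library held 0 to 58 counts of Cyp2b9 and 0 to 16 of Cyp2b13. Male levels were 0.0409% and 0.0125% of female levels, and those of Xist, a transcript of female cells, 0.0335%. The part of such reads in the male values of these 2 genes was not tested.

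Cyp2a4, a steroid hydroxylase, had 683 CPM in fed females and 2.57 in fed males, and Cyp2c69 had 768 and 3.90 CPM. In males Cyp2a4 may share reads with the near-identical Cyp2a5, which was at 485 CPM there. Cyp3a44 (79.7 against 0.299 CPM), Cyp3a16 (27.1 against 0.257) and Cyp2c40 (424 against 10.2) were also apart between the sexes in every fed library. So were Cyp2b10 (25.6 against 1.85), Cyp2c39 (15.7 against 1.20), Cyp2c38 (132 against 24.2) and Cyp2c68 (401.5 against 153). Cyp2c37 was higher in females (564 against 221 CPM, log2 difference 1.404, SE 0.16) with overlap.

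The male set was led by Cyp2d9, a testosterone hydroxylase, with 1277 CPM in fed males and 31.97 in fed females, a log2 difference of -5.26 (SE 0.18, adjusted p = 3.8e-28, edgeR). Cyp2u1 followed, with 36.1 CPM in males and 3.46 in females (-3.12, SE 0.16). Cyp2c67 (335 against 176 CPM) and Cyp2f2 (1647 against 891 CPM) were likewise apart in every fed library, and Cyp2d11 (2.05 against 0.703 CPM, log2 -1.60) was higher in males with overlap. Cyp2d26 went against its subfamily and was higher in females by 0.30 (SE 0.06).

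Of the 19 genes higher in fed females, 15 were also called higher in fasted females, and of the 14 higher in fed males, 12 in fasted males. Cyp2c54 had 0.45 (SE 0.17) in fed livers over CT8 to CT44 and -0.55 (SE 0.18) in fasted livers. Its fed value was 0.41 (SE 0.18) and not called over CT12 to CT44, and neither call held without either male replicate. Under the replicate block neither call held, but as coded that block takes the sex difference at the first replicates only. Cyp2j5 had -0.34 (SE 0.07) in fasted and -0.003154 (SE 0.06) in fed livers, and its fasting effect differed between the sexes. The number higher in fed males was 9 without the second male replicate of each group, and that in fasted males 12 without either male replicate.

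**Figure D3:**
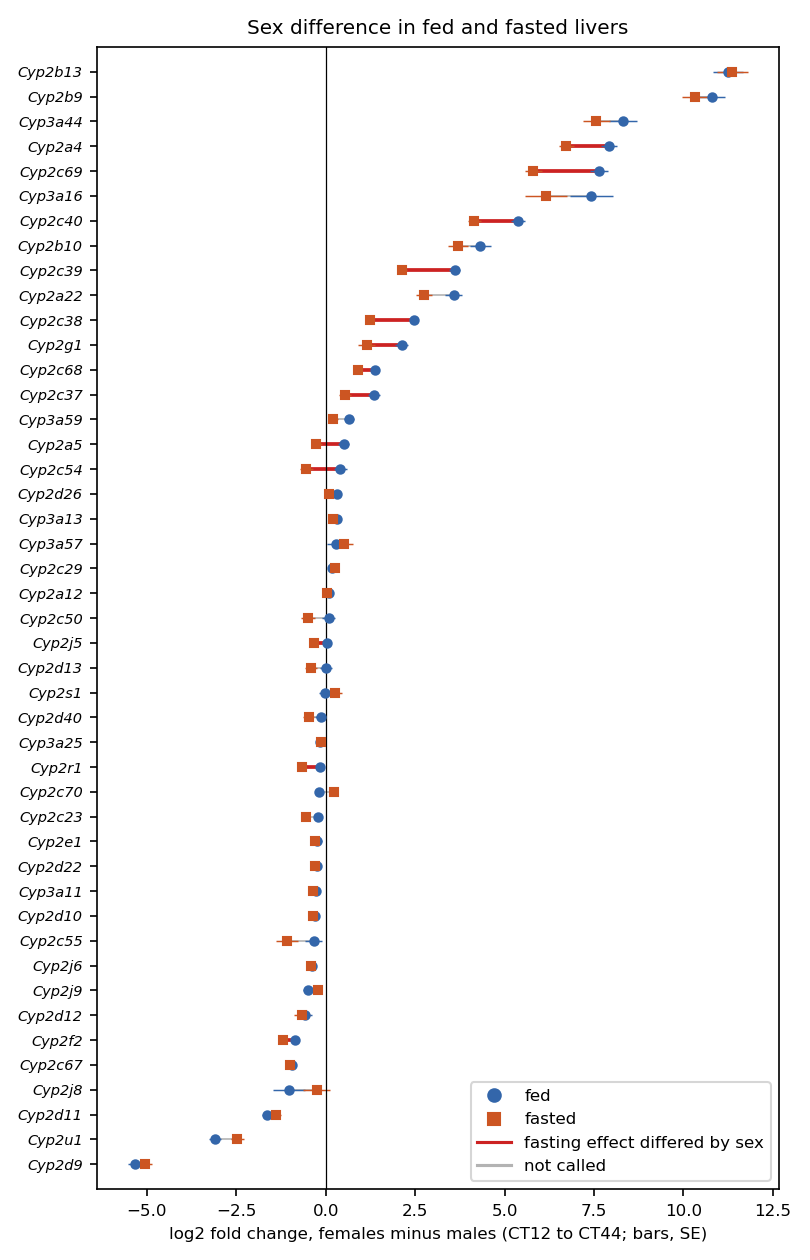
Log2 difference of females minus males in fed (circles) and fasted (squares) livers from CT12 to CT44 for each of the 45 genes, ordered by the fed value, with bars for the SE. Red lines join the values of the 13 genes whose fasting effect differed between the sexes. In all 13 the fasted value lies to the left of the fed value, which is what a lower fasting effect in females means. The fed and fasted values are 7.65 and 5.81 for Cyp2c69, and 3.60 and 2.14 for Cyp2c39.

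The fasting effect differed between males and females for 13 genes, and in all 13 it was lower in females, where 7.02% of all genes were called lower. None of the 45 was called higher in females, against 5.34% of all genes (edgeR, with 2 of the 45 higher at an unadjusted p under 0.05, and 1, Cyp2c70, called by DESeq2). Of the 13 genes, 10 were among those higher in fed females and 2, Cyp2f2 and Cyp2r1, among those higher in fed males. In females, 10 of the 13 fell with fasting, and in males 3 fell and 3 rose.

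Cyp2c69 showed the largest such difference. It lay between 486 and 1831 CPM in fed females (median 785, n = 18) and between 101 and 720 CPM in fasted females (median 257), while males had medians of 3.83 CPM fed and 5.23 CPM fasted. Its fasting effect was -1.504 (SE 0.19) in females and 0.33 (SE 0.20) in males, a difference of -1.84 (SE 0.28, adjusted p = 2.1e-05, edgeR). Cyp2c40 (-1.25 in females, -0.04 in males) and Cyp2a4 (-0.83 and 0.36) had the same form, with a fall in females and no call in males.

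Cyp2c39 and Cyp2c38 differed in another way, since they rose in both sexes and rose more in males. Cyp2c38 went from a median of 24.2 CPM (11.9 to 37.0) to 76.9 CPM (25.7 to 165) in males and from 132 CPM (lowest 72.3) to 164 CPM (85.6 to 252.5) in females. The log2 rises were 1.52 (SE 0.11) in males and 0.27 (SE 0.10) in females, and the difference was -1.25 (SE 0.15, adjusted p = 2.9e-07, edgeR). For Cyp2c39 the rises were 2.17 and 0.70.

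Cyp2r1 (-1.34 in females, -0.84 in males), Cyp2f2 (-0.76 and -0.42) and Cyp2g1 (-2.12 and -1.14) fell in both sexes and further in females. Cyp2c68, Cyp2j5, Cyp2c54 and Cyp2a5 fell in females, by 0.48 to 0.93, and were not called in males. Cyp2c37 rose in males (0.48, SE 0.17) and had -0.35 (SE 0.17) in females, which was not called. By sex, 16 genes rose and 11 fell in males (22.1% and 24.3% of all genes), and 13 rose and 22 fell in females (27.7% and 30.7%).

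The Cyp2b10 rise did not differ by the test (-0.62, SE 0.39, adjusted p = 0.33, edgeR), being 2.23 (SE 0.30) in males and 1.62 (SE 0.25) in females. The Cyp2b sum, which in females is mostly Cyp2b9 and Cyp2b13 and in males mostly Cyp2b10, differed by -2.02 (SE 0.29). The Cyp2a (-0.55), Cyp2c (-0.33) and Cyp2j (-0.31) sums also differed, and the Cyp2d and Cyp3a sums were not called. The 13 calls became 6 without the first male replicate of each group and 6 without the second. Without the second fasted female at CT40, described above, all 13 were called, and in females 15 genes rose and 21 fell. Without the second fasted female at CT36, 12 of the 13 were called (Cyp2g1 was not), Cyp2c70 was called higher, and in females 15 rose and 22 fell. Without the first or the second male replicate the 6 were Cyp2a4, Cyp2c38, Cyp2c39, Cyp2c40, Cyp2c68 and Cyp2c69.

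**Figure D4:**
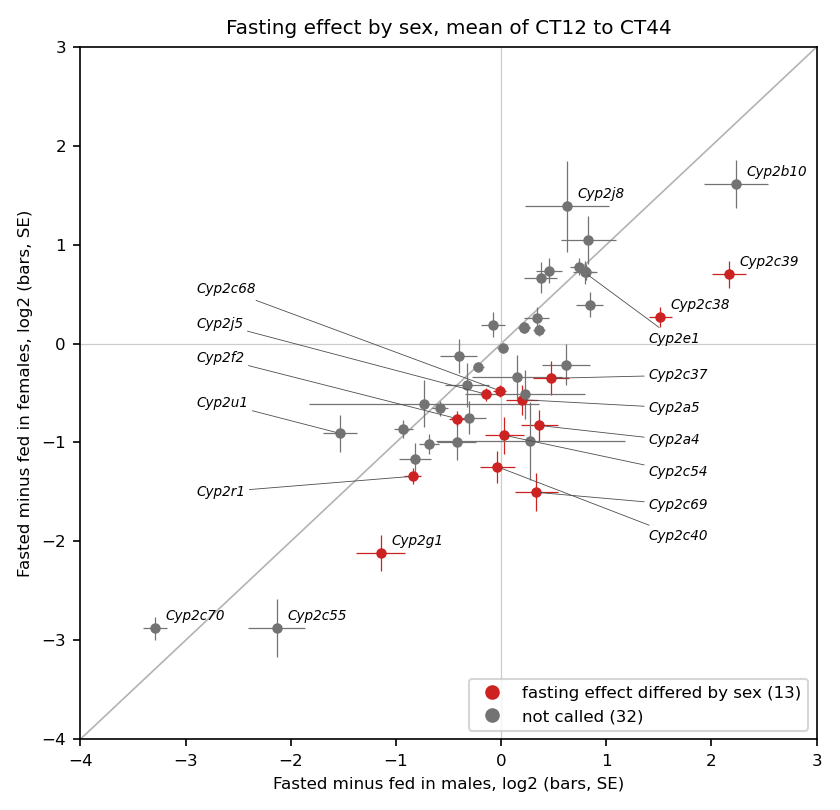
Mean log2 fasting effect in females against that in males for the 45 genes, with SE bars on both axes, the line of equal effects in grey and the 13 genes whose effect differed between the sexes in red. All 13 lie below the line, Cyp2c39 at 2.17 in males and 0.70 in females and Cyp2c69 at 0.33 and -1.504, while Cyp2c70 at -3.29 and -2.88 and Cyp2b10 at 2.23 and 1.62 were not called different.

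A rhythm of 24 h in fed livers, fitted as a cosine over the 40 control libraries with sex as a term, was called for 18 of the 44 genes tested (Cyp2j8 fell under the filter), or 40.9%, against 41.8% of 20114 genes. The 18 peaks were spread over the day, with 7 between CT22 and CT4, 3 between CT4 and CT10, 3 between CT10 and CT16, and 5 between CT16 and CT22. None of the 8 Cyp2d genes and 1 of the 7 Cyp3a genes, Cyp3a13, was called.

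Cyp2a5, the coumarin hydroxylase of mouse liver, and its neighbour Cyp2a4, both with the D-box printed above, had peak-to-trough values of 2.32 and 2.01 on the log2 scale and fitted peaks at CT12.5 and CT12.5. Fed Cyp2a5 lay at 1037 and 699.5 CPM in males and 967 and 1307 in females at CT12. At CT24 it lay at 181 and 180 CPM in males and 220 and 103 in females. The highest library at CT24 was thus below the lowest at CT12. Cyp2a5 was called with adjusted p = 4.73e-10 (edgeR), and at most 1.17e-05 under any alternative.

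Cyp2g1 had the largest swing, 2.55 with a peak at CT8.8, at a median level of 1.88 CPM in fed livers. Cyp2b10, the third gene with a D-box, peaked at CT18.7 with 1.21 and was not called without the first male or first female replicate, where the highest adjusted p was 0.105 (edgeR). Cyp2c70 (0.91, CT19.5) and Cyp3a13 (0.74, CT17.3) peaked in the subjective night. Cyp2u1 (1.399, CT1.5), Cyp2c55 (1.47, CT2.7) and Cyp2c69 (1.08, CT0.45) peaked near its end, and Cyp2e1 (0.63, CT10.2) late in the subjective day. Cyp2c40, Cyp2c29, Cyp2c68 and Cyp2j5 peaked between CT22.9 and CT0.68 with 0.22 to 0.67. Without the second male replicate of each group 11 of the 18 were called, and those lost were Cyp2a12, Cyp2c23, Cyp2c29, Cyp2c40, Cyp2c68, Cyp2f2 and Cyp2j5.

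**Figure D5:**
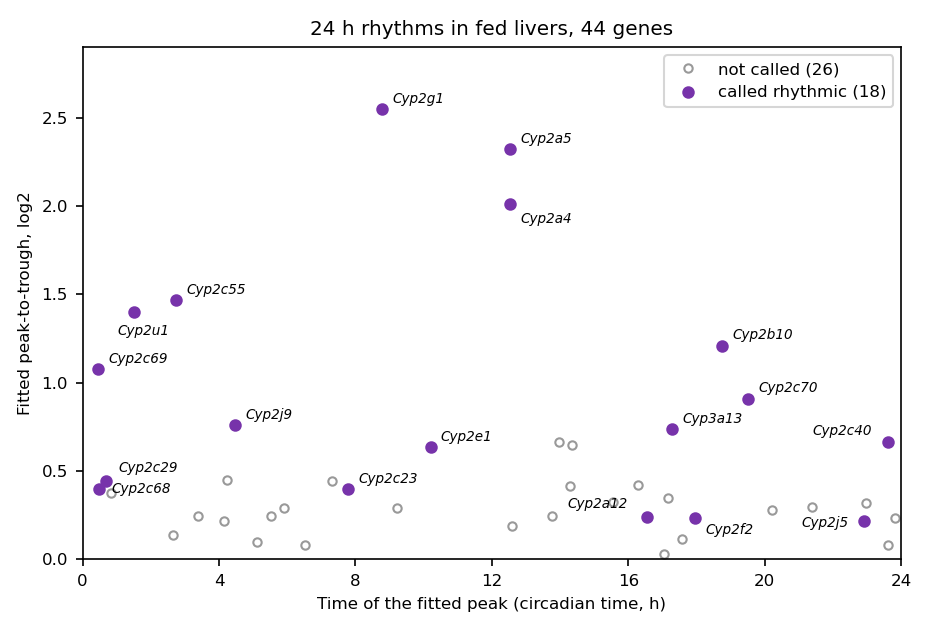
Fitted peak-to-trough on the log2 scale against the circadian time of the fitted peak in fed livers for the 44 genes tested, with the 18 called rhythmic filled and named. Cyp2g1, Cyp2a5 and Cyp2a4 stand highest, at 2.55, 2.32 and 2.01 with peaks from CT8.8 to CT12.5, and the other called genes lie at 1.47 or below at all times of day.

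Fasted and fed rhythms, compared over the 9 times after food removal, with a straight trend fitted to each treatment, differed for 11 of 45 genes (24.4%), against 23.2% of 20965 genes. Cyp2u1 led (adjusted p = 0.000142, edgeR), with a fitted peak at CT1.2 in fed and CT7.3 in fasted livers and peak-to-trough values of 1.42 and 1.55. Cyp3a13 peaked at CT17.2 in fed and CT22.1 in fasted livers. Cyp3a59 and Cyp3a25, which carry the pair of receptor motifs, had 0.23 and 0.25 in fed livers and 1.35 and 0.96 in fasted livers, with fasted peaks at CT6.6 and CT5.8, and neither was called without the second male replicate. Cyp3a57, which also carries the pair, had 0.13 and 1.15 and was not called (adjusted p = 0.324, edgeR).

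Cyp2e1 went the other way, from 0.70 in fed to 0.20 in fasted livers (adjusted p = 0.0452, edgeR), and was not called under upper quartile scaling. Cyp2g1 had 2.58 with a peak at CT8.8 in fed and 3.81 with a peak at CT9.8 in fasted livers. Neither the Cyp2e1 nor the Cyp2g1 difference was called on leaving out any replicate of 1 sex. For Cyp2a5 the fed and fasted values were 2.31 with a peak at CT12.5 and 2.41 with a peak at CT13.2, and for Cyp2a4 1.88 at CT13.2 and 1.62 at CT13.8, and neither difference was called (adjusted p = 0.535 and 0.775, edgeR). Leaving out 1 replicate of 1 sex throughout gave 3 to 9 calls (4 without the first male replicate, 3 without the second, 5 without the first female replicate and 9 without the second), and Cyp2j8 and Cyp2u1 were called each time. Cyp2j8 had at least 10 counts in only 8 of the 80 libraries, and its rhythm difference was lost at a mean CPM of at least 1. Its changes at single times were called at CT36 and CT40 alone. With 34 h of fasting, a rhythm and a response to the fast that bends with time cannot be fully told apart.

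The genes that work with these enzymes were listed in 4 groups. Of 6 genes for electron and haem supply, 2 rose with fasting and 3 fell. Por, the reductase that feeds all microsomal P450 enzymes, rose by 1.67 (SE 0.07), and Alas1, the rate-limiting enzyme of haem synthesis, by 0.65 (SE 0.15). Cyb5b and Cyb5r3, which carry electrons through cytochrome b5, fell by 1.62 (SE 0.06) and 1.19 (SE 0.06), and Pgrmc1 by 0.26. Whether Cyb5b and Cyb5r3 serve the enzymes described here was not tested. In fed livers Por (2.23) and Alas1 (2.55) peaked at CT12.1 and CT12.3, against CT12.5 for Cyp2a5.

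Of 7 xenobiotic receptors and their partners, 5 rose and 2 fell with fasting. Nr1i3, which encodes CAR, rose by 0.84 (SE 0.11), Ppara by 0.64, Nr1i2, which encodes PXR, by 0.53 (SE 0.05), Hnf4a by 0.41 and Rxra by 0.14, while Ahr fell by 0.24 and Arnt by 0.11. Nr1i3 was higher in fed females by 0.71 (SE 0.14) and had 0.29 (SE 0.15) in fasted livers, which was not called. None of these 7 genes had a fasting effect called lower in females, and 1 had it called higher. Of the 6 genes for electron and haem supply, 3 had a fasting effect called lower in females. Of 7 regulators of the growth hormone programme, 1 rose and 5 fell. Ghr, the growth hormone receptor, fell by 0.87 (SE 0.06), Prlr by 0.66, Stat5a by 0.48, Stat5b by 0.17 and Onecut1 by 1.60. Cux2 rose by 0.88 in the mean of the sexes, which gives equal weight to males, where its level was far lower than in females.

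Cux2, a repressor of male genes that is made in female liver, was higher in fed females by 5.96 (SE 0.34) and in fasted females by 4.31 (SE 0.32), and its fasting effect was lower in females by 1.70 (SE 0.50, adjusted p = 0.0181, edgeR). Prlr (-0.93, SE 0.12) and Ghr (-0.38, SE 0.13) also had a lower fasting effect in females. Bcl6, a repressor of female genes, was higher in fed males (females minus males -1.60, SE 0.36), and its difference in fasted livers (-0.21, SE 0.37) was not called. The fasting effect of Bcl6 was not called different between the sexes. All 4 clock output factors were rhythmic in fed livers, Dbp with 6.26 and a peak at CT8.9, Tef with 2.40 at CT11.1, Hlf with 0.60 at CT12.3 and the repressor Nfil3 with 2.21 at CT21.9. Dbp, Tef and Nfil3 rose with fasting, by 0.38, 0.20 and 0.21.

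Some markers of liver zones and of other liver cells also changed with fasting or differed between the sexes. Of 7 periportal markers 5 rose and 1 fell with fasting. Their sum went from a median of 4514 to 9580 CPM in males and from 3822 to 8467 in females. The highest single marker among them had a median of 5293 CPM in fasted males and 4763 CPM in fasted females. Cyp2f2, a periportal marker not counted among them, fell by 0.59 on the log2 scale. Whether the zones shifted with fasting was not tested. Of 7 pericentral markers 3 rose and 3 fell. All 5 Kupffer cell markers fell with fasting and were higher in fed females, with sums of 182 to 372 CPM in fed males and 258 to 541 CPM in fed females. All 5 stellate cell markers (194 to 263 CPM and 277 to 360 CPM) and 4 of 5 endothelial markers were higher in fed females too. Among 5 cholangiocyte markers, 3 were higher and 1 was lower in fed females. Of the cholangiocyte markers 4 fell with fasting. No marker had a median of 0 in any group, and the part of these cells in the results was not tested.

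Over the 80 libraries, the genes whose log2 CPM followed that of Cyp2b10 most closely were Cyp17a1 (Pearson's r = 0.899), Cyp39a1 (0.884), Kdm6a (0.867), Ybx3 (0.867) and App (0.859), with 0.56 to 0.804 after the mean of each sex was taken out. For Cyp2e1 they were Fcho2 (0.925), Vwa8 (0.882), Eci2 (0.875), Acsm3 (0.874) and Decr2 (0.868), and these were 0.869 to 0.922 within sexes. The libraries share treatment and time, so that these values describe likeness over this design alone.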

How the data were processed

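The 80 libraries were made from poly(A)-selected, stranded, paired-end RNA. The authors deposited whole-number read counts per gene, unnormalized, 1 column per mouse, and these counts were the only values used. The submitters' processing notes name Trimmomatic, HISAT2, DESeq2 and GRCm39, and the counting program is not given in the sources used here. The positions and sequences printed come from GRCm38 and its annotation, a different build, matched by gene identifier or symbol. A normalized table and a table of exon bins were not used here. The article is a review with no methods for these data, so that no test was taken from it.

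Treatment, time, sex and replicate came from titles, since the detailed labels contradict the title's sex in 40 libraries and its treatment in 40.

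Counts were analysed in R 4.3.3 with edgeR 4.0.16 (limma 3.58.1). Genes were filtered with filterByExpr by group, libraries scaled by TMM, trended dispersions estimated and 1 mean for each treatment, time and sex fitted with glmQLFit. Contrasts were tested with glmQLFTest over all 80 libraries and adjusted by Benjamini-Hochberg over all genes, with calls at 0.05. Fed rhythms were fitted on the 40 control libraries as a cosine and sine of 24 h with sex, and their difference from fasted rhythms on 72 libraries with treatment by sex means and a linear change per treatment. CPM were TMM-scaled, with a prior count of 2 on the log2 scale. Subfamily sums were fitted in place of their members. The fits were tested on simulated counts with known changes.

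Depth ran from 25534901 to 59927771 counts. The SE values given come from edgeR's fit over replicate mice and so include the spread between mice. Each library is 1 mouse. No 2 libraries of a group agreed within sampling noise (lowest chi-square per degree of freedom 14.8 over 120 pairs).

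The genes and lists were chosen with earlier results of these data known. Values are given for the 3 genes of highest level in each subfamily and among the others, the 5 smallest p-values in each of 5 comparisons, the 5 largest rises and falls for the fasting mean and the fed sex difference, and a fixed list of 22 members, 39 genes in all. The other 6 (Cyp2a22, Cyp2c23, Cyp2d12, Cyp2d13, Cyp2d40, Cyp2s1) enter the counts. Alternatives were other scalings (DESeq2 size factors, upper quartile), other filters, DESeq2 1.42.0, a minimum change, a replicate block, single sexes, and leaving out replicates, times, the library rich in ribosomal RNA and, chosen after seeing the data, single fasted females at CT36 and CT40.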

Additional observations from a re-analysis of the deposited data

Results flagged for a closer look

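The difference of the fasting effect between females and males, tested as an interaction in edgeR's fit over all genes, passed the threshold for 13 genes and flagged each of them. As log2 differences, females minus males, these were -1.84 for Cyp2c69, -1.47 for Cyp2c39, -1.25 for Cyp2c38, -1.21 for Cyp2c40, -1.19 for Cyp2a4, -0.97 for Cyp2g1, -0.96 for Cyp2c54, -0.83 for Cyp2c37, -0.77 for Cyp2a5, -0.50 for Cyp2r1, -0.46 for Cyp2c68, -0.37 for Cyp2j5 and -0.33 for Cyp2f2. The test for outlying samples needs groups of at least 4 and was not applied to groups of 2 mice. The 2 fasted females at CT40 lay furthest apart, and without the second of them all 13 differences were still called.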

How the results depend on the processing

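For the fasting mean, 15 genes rose and 19 fell, and 14 to 15 and 18 to 21 did on leaving out a replicate of 1 sex. In males alone 11 fell, and Cyp2c54 (0.0297) and Cyp2c69 (0.33) were above 0. With no filter on low counts, 3 genes had a higher and 24 a lower fasting effect in females, 27 rhythms differed, and 7, 13, 27 and 31 genes were changed at CT12, CT16, CT24 and CT32. A mean CPM of at least 1 gave 1 gene with a higher effect in females and 1 at CT12. DESeq2 gave 1 and 2 for these and 5 at CT16. Upper quartile scaling, and leaving out the library rich in ribosomal RNA, each gave 1 at CT12. At a change of at least 1.5 times, 5 genes were higher in fed males and 8 in fasted males. In females alone 10 rhythms were called. With pseudogenes and letter-suffixed copies added, the sex differences of the Cyp3a sum were -0.18 in fed and -0.19 in fasted livers and no longer called. Leaving out single fasted females was chosen after seeing the data. Without the second at CT40, 1 gene was called at CT12 and 5 at CT16, and without the second at CT36, 1 gene had a higher fasting effect in females. The cause of these changes was not tested.

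On leaving out a replicate of 1 sex, the other counts ranged from 11 to 17 for fed rhythms, 3 to 9 for rhythm differences, 0 to 1 and 6 to 17 for a higher and a lower fasting effect in females, 16 to 17 and 9 to 15 for genes higher in fed females and fed males, and 13 to 15 and 12 to 21 for fasted ones. At single times they were 0 to 4 at CT12, 3 to 5 at CT16, 11 to 18 at CT20, 9 to 20 at CT24, 14 to 20 at CT28, 10 to 20 at CT32, 14 to 22 at CT36, 15 to 23 at CT40 and 15 to 25 at CT44, and 99 to 145 in all.

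Replicate numbers are shared between fed and fasted groups, but same-numbered samples did not deviate together (18 pairs, r from -0.06 to 0.25, median 0.00056, 1 over 0.1), so the numbers were not taken as pairs. With the replicate block, 12 genes were higher in fasted males in place of 19. As coded, the block takes the sex differences at the first replicates of each sex. The lower count therefore cannot show whether replicate structure matters. Each group holds 2 mice, and no value here rests on fewer than 2 libraries a group except where a replicate was left out, when the lone sample was assumed to vary like the other groups.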
